A study of Mus musculus with 9 samples.

Results

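The 10 genes described here encode pattern recognition receptors and parts of the inflammasome: the Toll-like receptors Tlr2, Tlr3, Tlr4 and Tlr7, the co-receptor Cd14, the adaptor Myd88, and the inflammasome genes Nlrp3, Pycard, Casp1 and Gsdmd. They were taken by symbol from the 38926 genes of the count files, and all 10 were found. All 10 also passed the filter on low counts, which kept 17348 genes for testing. The tissue was whole lumbar dorsal root ganglia (L3, L4 and L5, ipsilateral to the injected paws) from wild type male C57BL/6 mice aged 8 to 10 weeks. Sensory neurons that serve the hind limb have their cell bodies there, among glia, vessels and resident immune cells. There were 3 groups of 3 libraries. The first received vehicle, the second a cumulative dose of 40 µg cisplatin and the third a cumulative dose of 40 µg oxaliplatin, each drug injected into the sole of the paw. The time from treatment to dissection is not given in the sources used here. Each library is a pool of the ganglia of 4 animals, so variation between single animals was not measured.

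Toll-like receptors are membrane proteins that bind microbial or damage-derived molecules. Tlr2 and Tlr4 act at the cell surface, with Cd14 handing them lipid ligands, whereas Tlr3 and Tlr7 sense double-stranded and single-stranded RNA in endosomes. Most of them signal through the adaptor Myd88 to NF-kappaB, while Tlr3 signals through the adaptor Ticam1. Nlrp3 is a cytosolic sensor that, once triggered, gathers Pycard and pro-caspase-1, and active caspase-1 (Casp1) matures interleukin-1 beta and interleukin-18 and cleaves Gsdmd, whose fragment forms pores in the membrane. In sensory ganglia these genes are mostly known from macrophages and satellite glia, and Toll-like receptors have also been described in nociceptors.

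Of the 10 genes, 6 had start sites in the RefSeq promoter table (GRCm38.p6). Of the genes called against vehicle, Cd14 had no such start site, and the 250 bases ahead of the Tlr3 start begin inside an annotated exon. The stretches below are shown for the 3 other called genes, Tlr2, Casp1 and Pycard, and for Nlrp3, the inflammasome sensor. Each covers the bases before the first annotated protein-coding exon, up to 250 bases ahead of the start site, read 5′ to 3′ on the gene's strand, with matches in capitals: the kappaB motif in Tlr2 and Nlrp3, and GAGGAA or its reverse complement in Casp1 and Pycard.
Tlr2, chr3:83841768-83841858, minus strand: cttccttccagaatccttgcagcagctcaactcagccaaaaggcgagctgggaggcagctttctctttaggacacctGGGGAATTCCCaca
Nlrp3, chr11:59541319-59541567, plus strand: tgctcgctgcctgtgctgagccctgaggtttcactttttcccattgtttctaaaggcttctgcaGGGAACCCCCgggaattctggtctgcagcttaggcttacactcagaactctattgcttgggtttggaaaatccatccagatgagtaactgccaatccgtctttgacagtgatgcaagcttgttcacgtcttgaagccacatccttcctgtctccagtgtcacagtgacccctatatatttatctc
Casp1, chr9:5298267-5298516, plus strand: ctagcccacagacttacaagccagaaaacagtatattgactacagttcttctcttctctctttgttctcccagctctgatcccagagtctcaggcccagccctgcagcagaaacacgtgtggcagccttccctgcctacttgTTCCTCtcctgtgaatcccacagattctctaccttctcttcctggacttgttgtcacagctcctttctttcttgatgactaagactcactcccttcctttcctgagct
Pycard, chr7:127993868-127994117, minus strand: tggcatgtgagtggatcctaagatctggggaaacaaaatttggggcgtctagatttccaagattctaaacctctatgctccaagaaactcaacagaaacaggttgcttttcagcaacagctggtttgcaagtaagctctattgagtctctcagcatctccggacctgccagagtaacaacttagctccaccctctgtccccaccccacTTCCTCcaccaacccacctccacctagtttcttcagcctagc

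The search covered 5 motifs on both strands: the kappaB motif, the core of the interferon-stimulated response element, the PU.1 core GAGGAA, the AP-1 motif TGANTCA and the TATA box TATAAA. The kappaB motif was found in the windows of Tlr2 (2 overlapping matches), Tlr3 and Nlrp3, and 7.25% of all 32851 promoters of the same length hold it. Of the 250 bases of the Tlr3 window, 178 are annotated as exon of Tlr3 itself. The PU.1 core was found in Casp1, Pycard and at a second Nlrp3 start (3 matches), against 23.3% of all promoters. Myd88 held the interferon response core, which 2.98% of promoters hold, and 2 overlapping TATA box matches, against 12.4%. The AP-1 motif, held by 6.75% of promoters, was in none of these windows. The Pycard window lies wholly within an exon of the non-coding gene Gm45205 on the opposite strand. These matches describe letters only, and the data hold no measurement of binding.

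By position in GRCm38, Tlr2 lies on chromosome 3 from 83836272 to 83841767, Tlr3 on chromosome 8 from 45395665 to 45411080, Tlr4 on chromosome 4 from 66827584 to 66930284, and Tlr7 on chromosome X from 167304929 to 167330558. Myd88 lies on chromosome 9 from 119335934 to 119341411, and Cd14 on chromosome 18 from 36725067 to 36726798. Nlrp3 spans 59541568 to 59566956 on chromosome 11, Pycard 127989708 to 127993867 on chromosome 7, Casp1 5298517 to 5307265 on chromosome 9, and Gsdmd 75862327 to 75867408 on chromosome 15. All are protein-coding. Tlr3, Myd88 and Pycard share 381, 290 and 485 exonic bases with a gene on the opposite strand (Gm45542, Acaa1a and Gm45205). Of these partners, Acaa1a is among the counted genes, whereas the symbols Gm45542 and Gm45205 are not. The strand setting of the counting is not known here, and reads of such a stretch cannot be assigned to one partner with certainty.

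Reads assigned to genes numbered 22819185 to 32022672 in the vehicle libraries, 31971613 to 38168902 with cisplatin and 35520144 to 38808509 with oxaliplatin. Vehicle library 2 differed from the rest in read composition: 51.0% of its recorded reads mapped to multiple places and its 10 most abundant genes took 32.9% of its gene reads, against at most 8.93% in the other 8 libraries. Reads outside genes made up 26.2 to 47.7% of the uniquely placed reads in the vehicle group and 16.6 to 19.1% in both drug groups. Their part in the results was not tested. Levels are in CPM, the reads of a gene relative to the TMM-scaled total of its library, a scaling that sets the typical gene equal between libraries. Scaling by library totals, without TMM, shifted the median over all genes to 0.29 log2 with cisplatin and 0.30 with oxaliplatin, and 86.7% and 86.6% of called genes were higher than in vehicle, against 40.9% and 42.1% with TMM. Sensory neuron markers, which define the tissue, summed to between 19230 and 22490 CPM in every library.

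Cd14 and Tlr2 rose with both drugs, Tlr3 fell with both, Casp1 rose with both, and Pycard rose with cisplatin. With cisplatin 4 of the 10 genes were called higher than in vehicle and 1 lower, and with oxaliplatin 3 were called higher and 1 lower. Called means a Benjamini-Hochberg adjusted p under 0.05 over all 17348 genes in edgeR's quasi-likelihood test. Over all genes tested, 15.8% were called higher and 22.9% lower with cisplatin (38.7% in either direction), and 17.5% higher and 24.1% lower with oxaliplatin (41.6% in either direction). The share of members called in either direction was thus close to the background, with more of them on the higher side. The median change of the 10 genes was 0.32 log2 with cisplatin and 0.23 with oxaliplatin, where the median of all genes was 0.00 in both comparisons. The drug comparisons share the vehicle libraries, so their values stand side by side and are not independent of each other. In bulk tissue, fewer cells of a type and less RNA per cell cannot be told apart, and the same holds for increases.

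**Figure D1:**
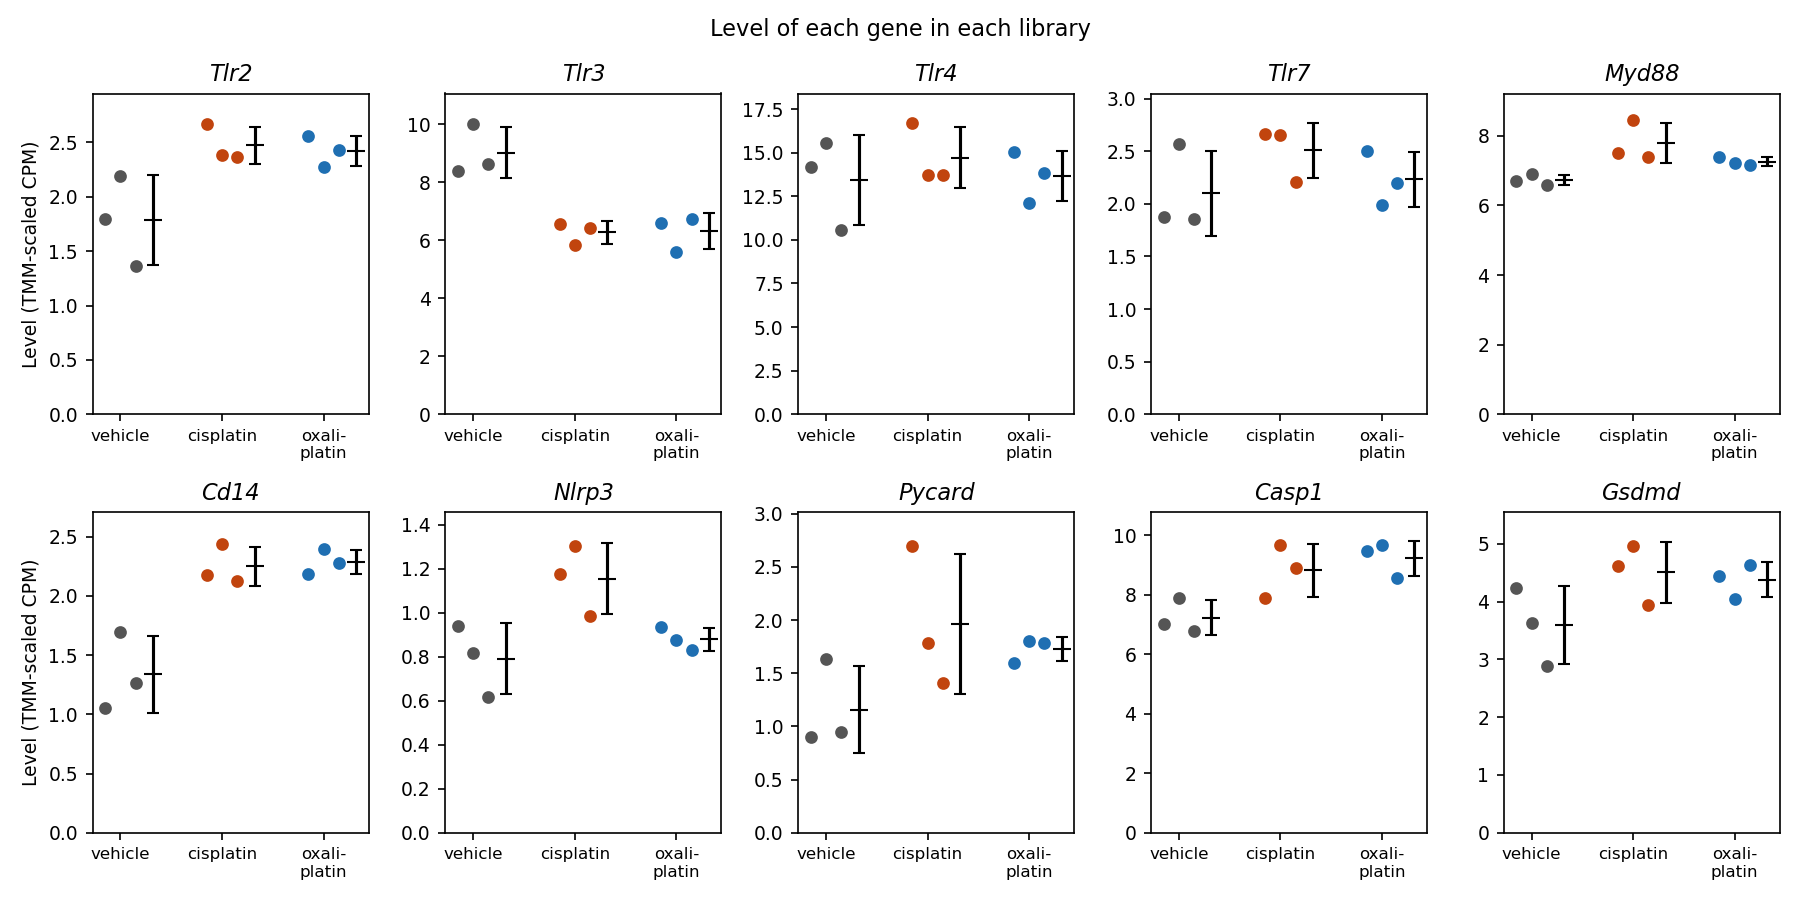
Level (TMM-scaled CPM, linear axis from 0) of each of the 10 genes in the 9 libraries; points are libraries 1 to 3 of each group from left to right, and the bar beside them is the mean ± SD. The vehicle points of Cd14 and Tlr2 lie below all drug points, those of Tlr3 lie above all drug points, and the groups overlap for Tlr4 and Tlr7.

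Cd14, the surface protein that presents lipopolysaccharide and lipopeptides to Tlr4 and Tlr2, was measured at 1.05, 1.69 and 1.27 CPM in vehicle libraries 1 to 3. It stood at 2.18, 2.43 and 2.13 CPM with cisplatin and at 2.19, 2.39 and 2.28 CPM with oxaliplatin. All 6 drug libraries were above all 3 vehicle libraries. The means rose from 1.34 ± 0.33 CPM (SD, n = 3) to 2.25 ± 0.16 and 2.29 ± 0.10, which is a log2 fold change of 0.79 (SE 0.17, 95% interval 0.42 to 1.17, adjusted p = 0.00362) with cisplatin and 0.82 (SE 0.17, 0.44 to 1.19, adjusted p = 0.00266) with oxaliplatin. Cd14 rests on 27 to 39 reads in a vehicle library and 76 to 101 in a drug library. It was called in all 21 alternative fits of both comparisons, with changes from 0.59 to 1.083 and from 0.61 to 1.12.

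Tlr2, the surface receptor for bacterial lipopeptides, stood at 1.80, 2.19 and 1.36 CPM in vehicle, at 2.67, 2.39 and 2.37 CPM with cisplatin and at 2.56, 2.27 and 2.44 CPM with oxaliplatin. The drug libraries were again all above the vehicle libraries, with vehicle library 2 close to the lowest of them. The log2 fold change was 0.51 (SE 0.17, 95% interval 0.15 to 0.88, adjusted p = 0.0300) with cisplatin and 0.48 (SE 0.17, 0.12 to 0.85, adjusted p = 0.0355) with oxaliplatin. Of the 21 alternative fits, 15 called Tlr2 with cisplatin and 13 with oxaliplatin, and DESeq2 did not call it with oxaliplatin. These calls also depended on single libraries. Without vehicle library 1 the changes were 0.57 and 0.54 with adjusted p = 0.0572 and 0.0626, and without vehicle library 3 they were 0.33 and 0.30 with adjusted p = 0.147 and 0.177. The cisplatin call was also lost without cisplatin library 1 or 2 (adjusted p = 0.0864 and 0.0592), and the oxaliplatin call without any 1 of the 3 oxaliplatin libraries (adjusted p = 0.065, 0.0556 and 0.0817). In a fit to the cisplatin and vehicle libraries alone, Tlr2 was not called with cisplatin.

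Tlr3, the endosomal receptor for double-stranded RNA, was the only one of the 10 genes called lower. Its level was 8.40, 10.0 and 8.65 CPM in vehicle, 6.57, 5.83 and 6.43 CPM with cisplatin and 6.61, 5.59 and 6.74 CPM with oxaliplatin. Each drug library was below each vehicle library. The mean of 9.02 ± 0.88 CPM fell to 6.28 ± 0.39 and 6.31 ± 0.63, a log2 fold change of -0.51 (SE 0.10, 95% interval -0.74 to -0.29, adjusted p = 0.00233) with cisplatin and -0.50 (SE 0.10, -0.73 to -0.28, adjusted p = 0.00223) with oxaliplatin. The change was negative in all 21 alternative fits and called in 20 of them for each drug. The exception was the scaling by library totals, where it was -0.22 (adjusted p = 0.271) and -0.20 (adjusted p = 0.311) while the median of all genes stood at 0.29 and 0.30.

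Tlr4, the receptor for lipopolysaccharide, and Tlr7, the receptor for single-stranded RNA, were not called against vehicle. Tlr4 had 14.2, 15.5 and 10.6 CPM in vehicle, 16.7, 13.7 and 13.7 CPM with cisplatin and 15.01, 12.1 and 13.9 CPM with oxaliplatin, and the groups overlapped throughout. Its change was 0.15 log2 (95% interval -0.14 to 0.44, adjusted p = 0.404) with cisplatin and 0.04 (-0.25 to 0.34, adjusted p = 0.813) with oxaliplatin. Tlr7 had 1.87, 2.57 and 1.85 CPM in vehicle, 2.67, 2.65 and 2.21 CPM with cisplatin and 2.51, 1.99 and 2.20 CPM with oxaliplatin. Its change was 0.29 log2 (95% interval -0.07 to 0.66, adjusted p = 0.182) and 0.13 (-0.24 to 0.49, adjusted p = 0.575). Tlr4 was called higher with cisplatin once each library's trend with exon length and GC content was removed (0.33, adjusted p = 0.0387), and with both drugs under library totals (0.45, adjusted p = 0.012, and 0.35, adjusted p = 0.0483). Library totals also gave a call for Tlr7 with cisplatin (0.59, adjusted p = 0.0224).

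Myd88, the adaptor shared by Tlr2, Tlr4 and Tlr7, showed the smallest spread relative to its mean of the 10 genes in vehicle and with oxaliplatin. It stood at 6.71, 6.89 and 6.60 CPM in vehicle, 7.51, 8.44 and 7.39 CPM with cisplatin and 7.40, 7.23 and 7.15 CPM with oxaliplatin. All drug libraries were above all vehicle libraries, yet the change of 0.21 log2 (SE 0.08, 95% interval 0.03 to 0.39) with cisplatin had an adjusted p of 0.0605 and the change of 0.11 (-0.07 to 0.29) with oxaliplatin an adjusted p of 0.305. Groups without overlap were common in these data: 21.3% of all genes lay wholly higher with cisplatin and 23.1% with oxaliplatin, against 4 of the 10 members in each comparison. Wholly lower groups made up 26.7% and 27.4% of all genes, and 1 member (Tlr3) in each, which gives 48% and 50.5% of all genes and 5 members in either direction. With the length and GC trend removed the Myd88 changes were 0.05 (adjusted p = 0.695) and -0.05 (adjusted p = 0.694). The cisplatin change passed the threshold in 6 of 21 alternative fits, among them the one without cisplatin library 3 (adjusted p = 0.0353).

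**Figure D2:**
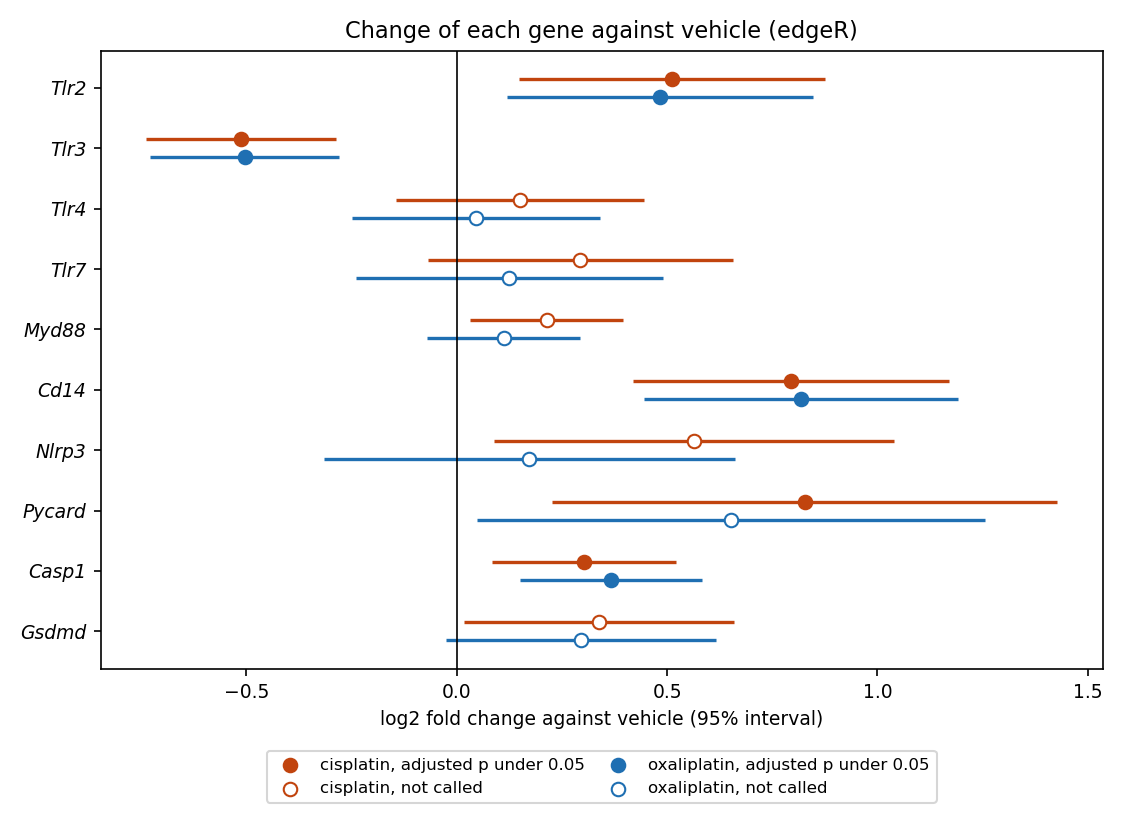
Log2 fold change of each gene against vehicle with its 95% interval, for cisplatin (orange) and oxaliplatin (blue); filled points have an edgeR adjusted p under 0.05. Tlr3 lies left of 0 for both drugs, Cd14 shows the highest called change with oxaliplatin at 0.82, and the intervals of both drugs overlap for every gene.

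Among the inflammasome genes, Casp1 was called higher with both drugs and Pycard with cisplatin, while Nlrp3 and Gsdmd were called with neither. Casp1, the protease that matures interleukin-1 beta, stood at 7.01, 7.89 and 6.76 CPM in vehicle, 7.88, 9.67 and 8.91 CPM with cisplatin and 9.46, 9.67 and 8.55 CPM with oxaliplatin. All oxaliplatin libraries were above vehicle, and cisplatin library 1 was level with vehicle library 2. The change was 0.30 log2 (SE 0.10, 95% interval 0.08 to 0.52, adjusted p = 0.0316) with cisplatin and 0.37 (SE 0.10, 0.15 to 0.58, adjusted p = 0.0117) with oxaliplatin. The cisplatin call was lost without vehicle library 1 (adjusted p = 0.0738), vehicle library 3 (0.115) or cisplatin library 2 (0.132), and with the length and GC trend removed (0.22 log2, adjusted p = 0.107). It was also lost in the fit to the cisplatin and vehicle libraries alone. The oxaliplatin call was lost only without vehicle library 3 (adjusted p = 0.0519) among the 21 alternative fits.

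Pycard, the adaptor also called ASC that links Nlrp3 to caspase-1, was low and variable. It had 24, 26 and 29 reads in the vehicle libraries and 0.90, 1.63 and 0.94 CPM, so that vehicle library 2 lay far above the other two. The cisplatin libraries had 2.69, 1.78 and 1.41 CPM and the oxaliplatin libraries 1.597, 1.80 and 1.79 CPM. The change was 0.83 log2 (SE 0.28, 95% interval 0.23 to 1.43, adjusted p = 0.0324) with cisplatin and 0.65 (SE 0.28, 0.05 to 1.26, adjusted p = 0.0786) with oxaliplatin. Without vehicle library 2, the library with the unusual read composition, the changes were 1.10 (adjusted p = 0.00952) and 0.92 (adjusted p = 0.0215), so the oxaliplatin change was then called. With 1 library left out, the cisplatin call did not hold without vehicle libraries 1 and 3 (adjusted p = 0.12 and 0.126) or cisplatin libraries 1 and 2 (adjusted p = 0.124 and 0.052), each in turn. Nor did this call hold in the fit to the cisplatin and vehicle libraries alone.

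Nlrp3, the sensor, had few reads, with 13 to 25 in a vehicle library, 37 to 54 with cisplatin and 32 to 38 with oxaliplatin. Its level was 0.94, 0.81 and 0.62 CPM in vehicle, 1.18, 1.30 and 0.98 CPM with cisplatin and 0.93, 0.88 and 0.83 CPM with oxaliplatin. The cisplatin libraries were all above the vehicle libraries and above the oxaliplatin libraries, and the latter overlapped vehicle. The change with cisplatin was 0.56 log2 (SE 0.22, 95% interval 0.09 to 1.04) with an adjusted p of 0.0589, and with oxaliplatin 0.17 (-0.32 to 0.66, adjusted p = 0.564). The cisplatin change passed the threshold when vehicle library 1 was left out (adjusted p = 0.046) and when cisplatin library 3 was (adjusted p = 0.0373). A count of 3 reads corresponds to between 0.0711 and 0.188 CPM in these libraries, so all 10 genes were above that level everywhere.

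Gsdmd, the pore-forming substrate of caspase-1, stood at 4.24, 3.63 and 2.89 CPM in vehicle, 4.62, 4.97 and 3.93 CPM with cisplatin and 4.45, 4.05 and 4.64 CPM with oxaliplatin. Vehicle library 1 overlapped both drug groups. The change of 0.34 log2 (95% interval 0.02 to 0.66, adjusted p = 0.0881) with cisplatin and of 0.30 (-0.03 to 0.62, adjusted p = 0.127) with oxaliplatin did not pass. Without vehicle library 1 both did (adjusted p = 0.0297 and 0.0377), and without cisplatin library 3 the cisplatin change did (adjusted p = 0.0368).

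Leaving out vehicle library 3 reduced the genes called among the 10 from 5 to 2 with cisplatin and from 4 to 2 with oxaliplatin, and the calls that held in both were those of Cd14 and Tlr3. Without vehicle library 2, the one with the unusual composition, 5 were called with each drug: Cd14 (0.97 and 0.99, adjusted p = 0.00123 and 0.000966), Tlr2 (0.67 and 0.64, adjusted p = 0.00928 and 0.0106), Tlr3 (-0.43 and -0.42, adjusted p = 0.00739 and 0.00764), Casp1 (0.38 and 0.44, adjusted p = 0.0155 and 0.0062) and Pycard, as given above. Without cisplatin library 1, 2 or 3 the cisplatin count was 3, 2 or 8. Fold changes also varied with gene length over the whole data set: Spearman's rho between log2 fold change and exon length was -0.407 with cisplatin and -0.408 with oxaliplatin, across 16380 genes, which are not independent replicates. The members' exon lengths run from 1497 bases (Casp1) and 1732 bases (Cd14) to 5207 bases (Tlr3) and 5556 bases (Tlr4). With the length and GC trend removed, Cd14 changed by 0.59 (adjusted p = 0.0142) and 0.61 (adjusted p = 0.0113), and Tlr3 by -0.36 (adjusted p = 0.0153) and -0.29 (adjusted p = 0.0404). Tlr2 then missed the threshold with both drugs (0.41, adjusted p = 0.0761, and 0.39, adjusted p = 0.0862).

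**Figure D3:**
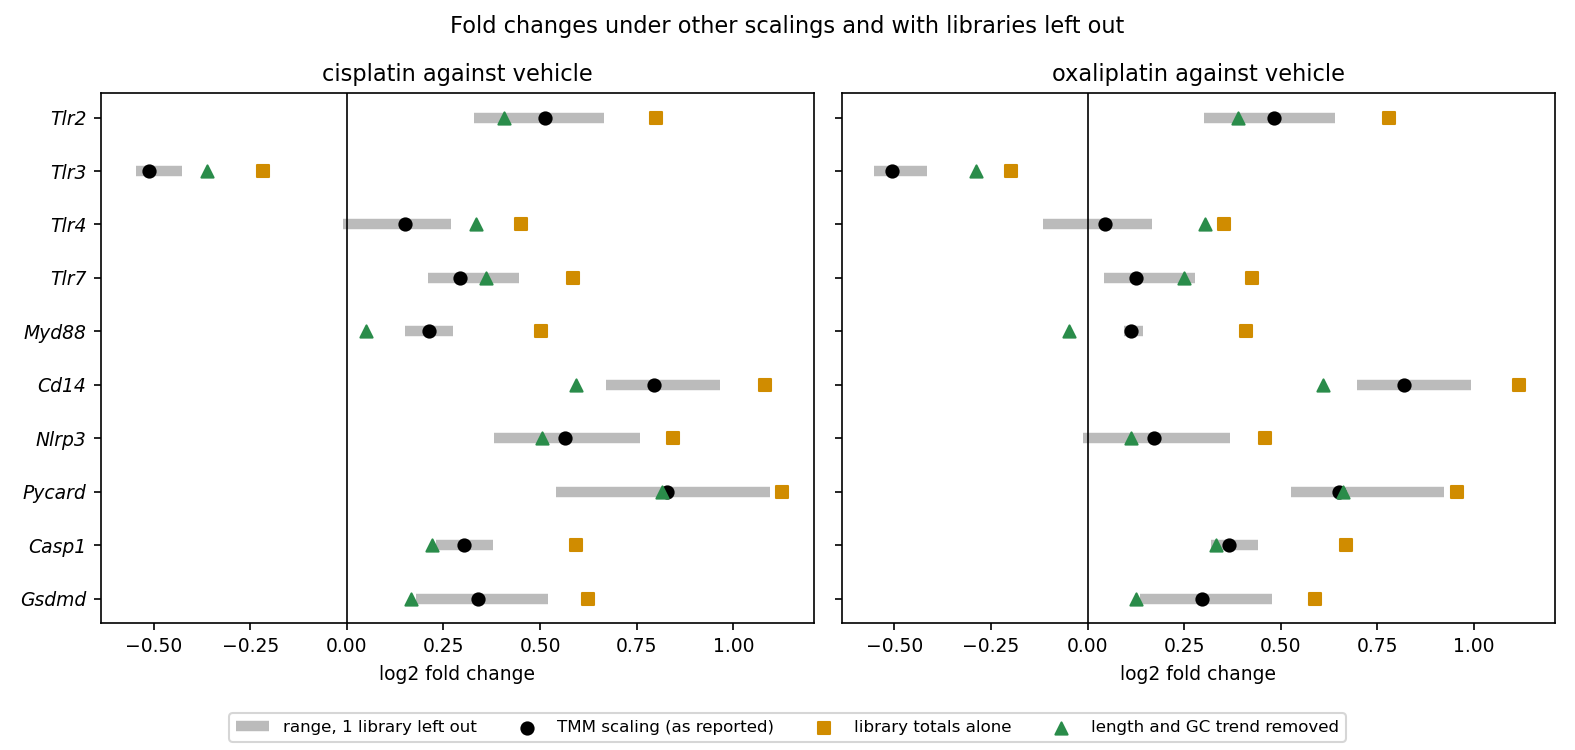
Log2 fold change of each gene against vehicle as reported (black), with library totals alone (squares), with the exon length and GC trend removed (triangles) and over the fits that leave out 1 library (grey range), for cisplatin (left) and oxaliplatin (right). Every value for Tlr3 is below 0 and every value for Cd14 above 0, while Tlr4 with either drug, and Myd88 and Nlrp3 with oxaliplatin, reach both sides of 0 in at least 1 fit.

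Cisplatin and oxaliplatin are both platinum complexes, and they differ in their ligands: cisplatin carries ammines and chlorides, oxaliplatin a diaminocyclohexane and an oxalate. They were given at the same cumulative mass, 40 µg, which is not the same molar dose, and this 1 pair was compared. None of the 10 genes was called between the drugs by edgeR, by limma-voom or by DESeq2, and none had an unadjusted p under 0.05 by any of them. Over all genes tested 0.0115% were called (2 genes). The largest difference was that of Nlrp3, whose 3 cisplatin libraries were all above the 3 oxaliplatin libraries. It was 0.39 log2 higher with cisplatin (95% interval -0.03 to 0.82, adjusted p = 0.769). Groups without overlap made up 14.1% of all genes in this comparison, 8.04% higher and 6.1% lower with cisplatin. For Pycard the difference was 0.18 (-0.34 to 0.69), for Tlr7 0.17 (-0.16 to 0.50), for Tlr4 0.11 (-0.18 to 0.39) and for Myd88 0.10 (-0.07 to 0.27). Those of Gsdmd (0.04, -0.25 to 0.34), Tlr2 (0.03, -0.29 to 0.35), Tlr3 (-0.01, -0.23 to 0.21), Cd14 (-0.02, -0.35 to 0.30) and Casp1 (-0.06, -0.27 to 0.14) were smaller. Differences of these sizes, up to the bounds given, cannot be told from 0 with 3 pools per group.

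Compared per length, as CPM per kilobase of exon, the genes spanned a wide range in vehicle. Casp1 was highest (4.82 ± 0.40), followed by Myd88 (2.61 ± 0.057) and Tlr4 (2.42 ± 0.46), which overlapped each other. Tlr3 (1.73 ± 0.17) came next and overlapped both Tlr4 above it and Gsdmd (1.51 ± 0.28) below it. Cd14 (0.77 ± 0.19), Tlr2 (0.59 ± 0.14) and Tlr7 (0.51 ± 0.10) formed a lower set, each overlapping its neighbour. Pycard (0.30 ± 0.11) and Nlrp3 (0.19 ± 0.040) were lowest and did not overlap. With either drug Tlr3 moved from rank 4 to rank 6, to 1.21 in both drug groups, below Gsdmd (1.90 and 1.84) and Cd14 (1.30 and 1.32), although the Tlr3 and Cd14 libraries overlapped with each drug. Per kilobase of coding sequence, Myd88 (7.13) stood above Casp1 (5.99), and Pycard, whose annotated exons are much longer than its coding part, moved from rank 9 to rank 6.

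For each gene, the 3 genes whose profile over the 9 libraries was nearest were taken by the root mean square difference of centred log2 CPM among 13383 genes with a mean of at least 1 CPM. For Cd14 these were Ly6e (0.10), the pseudogene Rpl9-ps7 (0.10) and B3gnt9 (0.11). Genes near Tlr2 included Nrm (0.08) and Aim1 (0.09), and Tlr3 was nearest to Appl1, Usp42 and Hnrnpll (0.07 each). Tlr4 was nearest to Dab2 (0.09), Abca9 and Mms22l (0.10 each), Tlr7 to the pseudogene Trmt112-ps2 (0.07), Cd38 (0.07) and Frzb (0.08), and Myd88 to Rnf34 (0.04), Mvd and Srprb (0.05 each). Casp1 was nearest to Trim21 (0.05), Hes6 (0.06) and the pseudogene Tpd52-ps (0.06), Pycard to Ptpn6 (0.12), Tnfaip8l2 (0.12) and Eya1 (0.14), Nlrp3 to Capn6 (0.10), Nrk (0.11) and Slc14a1 (0.13), and Gsdmd to Col12a1, Mettl18 (0.08 each) and Svep1 (0.09). None of the 10 genes was among the 3 nearest of another. Nlrp3 could not be, since its mean over the 9 libraries was 0.94 CPM, below the limit of 1 CPM. With 13383 genes compared, absence from 3 names does not show that members are unlike.

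The other genes of these pathways were counted in 5 lists. Of 16 other Toll-like receptors and helpers, 6 were called higher and 2 lower with cisplatin, and 7 higher and 2 lower with oxaliplatin, with medians of 0.40 and 0.36 log2. Over all genes tested the shares called were 15.8% higher and 22.9% lower with cisplatin and 17.5% and 24.1% with oxaliplatin. Tlr13, the endosomal sensor of bacterial ribosomal RNA, had 1.5, 1.94 and 1.40 CPM in vehicle, 3.24, 3.13 and 2.63 with cisplatin and 2.14, 2.56 and 2.56 with oxaliplatin. It rose by 0.93 log2 (adjusted p = 0.000945) and 0.62 (adjusted p = 0.0105, or 0.0542 without vehicle library 3). Tlr5, the flagellin receptor, was lower: its mean of 4.08 ± 0.88 CPM fell to 2.36 ± 0.13 with cisplatin (-0.82 log2, adjusted p = 0.00188) and 2.79 ± 0.34 with oxaliplatin (-0.58, adjusted p = 0.0107, or 0.0629 and 0.0583 without vehicle library 1 or 3, and 0.19 with library totals). Unc93b1 and Cnpy3, chaperones that bring Toll-like receptors to their compartments, and Lbp, which carries lipopolysaccharide to Cd14, rose in both comparisons and in every fit with 1 library left out. Their changes were 0.47 and 0.45 for Unc93b1 (adjusted p = 0.00188 and 0.00229), 0.34 and 0.35 for Cnpy3 (0.00163 and 0.00114), and 0.63 and 0.77 for Lbp (0.00197 and 0.000498), cisplatin first. Ly96, the partner of Tlr4 also called MD-2, was not called (-0.07 and -0.37, adjusted p = 0.805 and 0.175), nor was Tlr9 (0.61 and 0.48, adjusted p = 0.0956 and 0.185).

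Among 25 adaptors, kinases and transcription factors downstream of the receptors, 5 were called higher and 7 lower with cisplatin, and 3 higher and 7 lower with oxaliplatin, with medians of 0.02 and 0.05. These counts lie near the all-gene shares of 15.8% higher and 22.9% lower with cisplatin and 17.5% and 24.1% with oxaliplatin. Tab3 and Tab2, ubiquitin-binding subunits of the Tak1 kinase complex, fell the furthest with oxaliplatin. Tab3 went from 58.3 ± 4.5 CPM to 32.1 ± 2.1 with cisplatin (-0.86 log2, adjusted p = 5.81e-05) and 29.0 ± 4.1 with oxaliplatin (-1.01, adjusted p = 1.79e-05). Tab2 went from 60.4 ± 2.8 CPM to 44.8 ± 0.61 (-0.43, adjusted p = 0.000112) and 43.2 ± 2.1 (-0.48, adjusted p = 4.25e-05), changes of -0.15 and -0.19 that were not called with library totals (adjusted p = 0.438 and 0.306). Tab1, the subunit that activates the same kinase, rose by 0.33 (adjusted p = 0.00709) and 0.38 (adjusted p = 0.00308). Irak4, the kinase recruited by Myd88, rose by 0.39 in both comparisons (adjusted p = 0.0171 and 0.0161, or 0.0821 and 0.0786 without vehicle library 3, 0.0533 without cisplatin library 2 and 0.0638 without oxaliplatin library 2). Ticam1, the adaptor of Tlr3, had 5.03 ± 0.40 CPM in vehicle, 4.30 ± 0.22 with cisplatin and 4.19 ± 0.32 with oxaliplatin and was not called (-0.22 and -0.26, adjusted p = 0.116 and 0.0694). Irak1, the kinase that acts next to Irak4, fell by 0.17 log2 (adjusted p = 0.0205) and 0.26 (adjusted p = 0.00196), and stood at 0.12 and 0.04 under library totals (adjusted p = 0.53 and 0.829). The Irak1 call with cisplatin did not hold in 5 of the 9 fits with 1 library left out (adjusted p up to 0.0997, without vehicle library 1; the others were vehicle library 3 and each cisplatin library). Traf6, the ubiquitin ligase of this route, fell by 0.22 log2 (adjusted p = 0.0176) and 0.29 (adjusted p = 0.00378), but stood at 0.06 and 0.01 under library totals (adjusted p = 0.744 and 0.978), below the median of all genes there. The Traf6 call with cisplatin was lost without vehicle library 1 or 3 or cisplatin library 1 or 3 (adjusted p = 0.101, 0.0505, 0.0541 and 0.0622).

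Of 17 NF-kappaB target genes 14 were tested; 3 were called higher with cisplatin and 4 with oxaliplatin, none lower, with medians of 0.16 and 0.22. That is a smaller share than the 38.7% and 41.6% of all genes called in either direction. Called higher alone were 15.8% and 17.5% of all genes, smaller shares than in this list, which rests on few genes. Icam1, an adhesion molecule for leukocytes, rose from 2.82 ± 0.40 CPM to 4.79 ± 0.98 with cisplatin (0.78, adjusted p = 0.00537) and 5.15 ± 0.84 with oxaliplatin (0.89, adjusted p = 0.00216), and it was the one gene of the list called in every fit with 1 library left out. Vcam1, another adhesion molecule, rose by 0.42 (adjusted p = 0.0105) and 0.40 (adjusted p = 0.0131), and neither call held without vehicle library 3 (adjusted p = 0.0534 and 0.0668) or, for oxaliplatin, without oxaliplatin library 3 (0.0589). Birc3, an inhibitor of apoptosis, was called with cisplatin (0.28, adjusted p = 0.0280), but not without vehicle library 3 or cisplatin library 1 or 2 (adjusted p = 0.0984, 0.0769 and 0.0943), and not with oxaliplatin (0.18, adjusted p = 0.137). Nfkb2, a subunit of NF-kappaB, was called with oxaliplatin (0.23, adjusted p = 0.0376), a call that did not hold in 5 fits: those without vehicle library 1 or 3, cisplatin library 2 or oxaliplatin library 2 or 3 (adjusted p from 0.0528 to 0.11). With cisplatin it was at 0.18 (adjusted p = 0.0918). Nfkbia, the inhibitor that NF-kappaB induces against itself, was not called with cisplatin (0.18, adjusted p = 0.0845). It was called with oxaliplatin (0.22, adjusted p = 0.0412), but not with the length and GC trend removed (0.00, adjusted p = 0.993) or without vehicle library 1 or 3 or oxaliplatin library 2 or 3 (adjusted p = 0.0895, 0.101, 0.144 and 0.0977).

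Of 22 tested genes among other inflammasome sensors, regulators and pyroptosis effectors, 4 were called higher and 3 lower with each drug, with medians of 0.18 and 0.07. The share called in either direction was below the 38.7% and 41.6% of all genes. Txnip, which binds Nlrp3 under oxidative stress, rose from 58.5 ± 3.3 CPM to 75.8 ± 8.1 with cisplatin (0.38, adjusted p = 0.00179) and 88.3 ± 1.5 with oxaliplatin (0.60, adjusted p = 7.56e-05). Panx1, a channel that releases ATP, rose by 0.18 (adjusted p = 0.0157) and 0.20 (adjusted p = 0.00811). Ninj1, which ruptures the membrane of dying cells, rose by 0.28 (adjusted p = 0.0171) and 0.33 (adjusted p = 0.00702). Neither Ninj1 call held with the length and GC trend removed (0.14 and 0.18, adjusted p = 0.116 and 0.0513), nor the cisplatin call without vehicle library 1 or 3 or cisplatin library 1 (adjusted p = 0.0555, 0.0647 and 0.0583). Brcc3, a deubiquitinase of Nlrp3, fell by 0.29 log2 (adjusted p = 0.00573) and 0.42 (adjusted p = 0.000554), but stood at 0.05 and 0.08 with the length and GC trend removed (adjusted p = 0.57 and 0.347). Nek7, the kinase that Nlrp3 needs to assemble, had 309.2 ± 21.95 CPM in vehicle, 273.3 ± 3.5 with cisplatin and 269.9 ± 5.5 with oxaliplatin. Its decrease (-0.18, adjusted p = 0.0313, and -0.20, adjusted p = 0.0192) was not called with library totals (0.11 and 0.10, adjusted p = 0.614 and 0.64) or with the length and GC trend removed (0.05 and 0.10, adjusted p = 0.482 and 0.176). The Nek7 call was also lost in 7 of the 9 fits with 1 library left out with cisplatin and in 3 with oxaliplatin. Aim2, the sensor of cytosolic DNA, had 0.64 ± 0.08 CPM in vehicle, 1.13 ± 0.42 with cisplatin and 1.081 ± 0.11 with oxaliplatin (0.78, adjusted p = 0.0503, and 0.73, adjusted p = 0.0614). Casp4, the caspase of the non-canonical route, was not called (0.18 and 0.06, adjusted p = 0.474 and 0.822).

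Il1b and Il18, the cytokine genes whose products caspase-1 matures, were not called with either drug. Il1b, which encodes interleukin-1 beta, was counted in 8, 23 and 6 reads in vehicle, 23, 35 and 27 with cisplatin and 19, 28 and 18 with oxaliplatin. That is 0.30, 1.44 and 0.20 CPM in vehicle, 0.66, 0.84 and 0.72 with cisplatin and 0.47, 0.66 and 0.47 with oxaliplatin, so 1 vehicle library was the highest of all 9. Il1b was not called (0.48, adjusted p = 0.498, and 0.00, adjusted p = 0.999), whereas without that library, vehicle library 2, it was 1.61 log2 higher with cisplatin (adjusted p = 0.00429) and 1.14 higher with oxaliplatin (adjusted p = 0.0282). Il18 had 3.03 ± 0.11 CPM in vehicle, 3.08 ± 0.46 with cisplatin and 3.65 ± 0.31 with oxaliplatin (0.02 and 0.27, adjusted p = 0.916 and 0.131). Of the 12 tested genes of the interleukin-1 family, 4 were called higher and 1 lower with cisplatin and 2 higher with oxaliplatin, with medians of 0.18 and 0.02. Set against 38.7% and 41.6% of all genes called in either direction, the share called was near the background with cisplatin and below it with oxaliplatin. Called higher alone were 15.8% and 17.5% of all genes. The 4 higher calls with cisplatin were above that share and the 2 with oxaliplatin near it. Il33, an alarmin of this family that needs no caspase-1, rose from 7.57 ± 0.58 CPM to 11.4 ± 2.3 with cisplatin (0.60, adjusted p = 0.00367) and 10.1 ± 0.18 with oxaliplatin (0.42, adjusted p = 0.0234, or 0.1 without vehicle library 3 and 0.0618 without oxaliplatin library 2). Il18rap, a subunit of the interleukin-18 receptor, was called with cisplatin (1.05, adjusted p = 0.0128, or 0.0528 and 0.0739 without vehicle library 1 or 3) and not with oxaliplatin (0.71, adjusted p = 0.0725, or 0.0126 without vehicle library 2 and 0.0215 without oxaliplatin library 1). Il1rl1, the receptor for interleukin-33, was called with cisplatin (0.49, adjusted p = 0.0212), but not without vehicle library 1 or 3 or cisplatin library 1 or 2 (adjusted p = 0.084, 0.0879, 0.0648 and 0.0682), and not with oxaliplatin (0.18, adjusted p = 0.357). Sigirr, an inhibitory receptor of the family, had 8 to 19 reads in a vehicle library and rose by 0.82 (adjusted p = 0.0427) and 0.88 (adjusted p = 0.0281). The Sigirr call did not hold in 7 of the 9 fits with 1 library left out with cisplatin (adjusted p up to 0.162) and in 4 with oxaliplatin (up to 0.112), the highest in both being without vehicle library 1. Between the drugs no gene of any of the 5 lists was called by edgeR, limma-voom or DESeq2, with 3, 0, 0, 1 and 2 genes at an unadjusted p under 0.05 in the order given above.

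**Figure D4:**
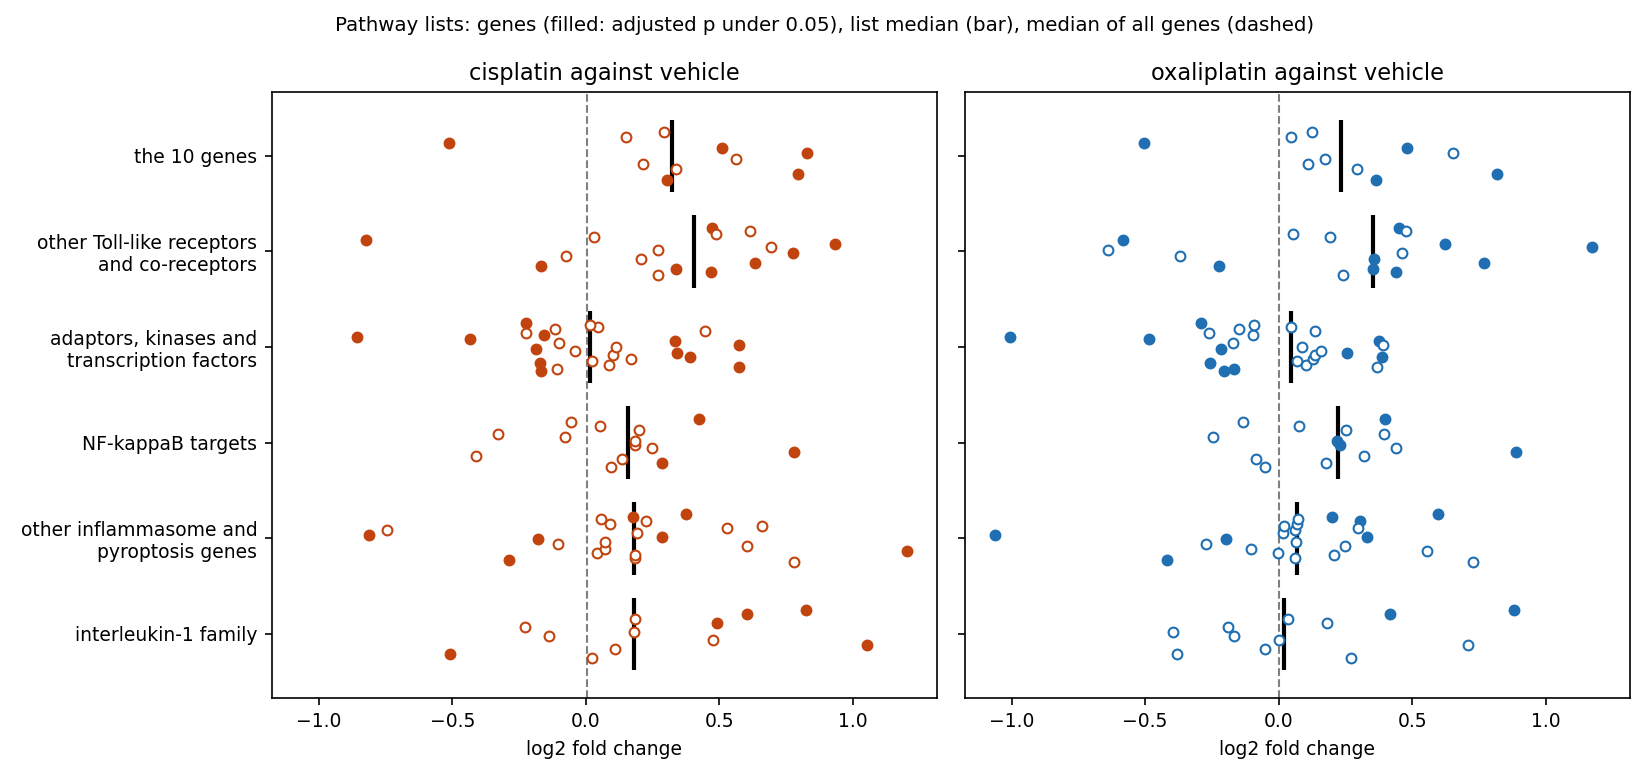
Log2 fold change against vehicle of each tested gene in the member list and the 5 pathway lists (rows), for cisplatin (left) and oxaliplatin (right); filled points have an edgeR adjusted p under 0.05, the bar is the list median and the dashed line the median of all genes. The list of other Toll-like receptors and co-receptors has the highest median in both panels (0.40 and 0.36), and the adaptors hold filled points on both sides of 0.

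Markers of several immune and non-neuronal cell types rose in the same comparisons. Their counts stand beside the shares over all genes tested, 15.8% called higher and 22.9% lower with cisplatin, and 17.5% and 24.1% with oxaliplatin. Of 15 matched macrophage markers 14 were called higher with cisplatin and 12 with oxaliplatin, none lower, and their summed level was 120.6 to 166.9 CPM in vehicle, 186.7 to 226.1 with cisplatin and 188.3 to 205.5 with oxaliplatin. None of them was at 0 in any library. C1qb, a complement gene of tissue macrophages, rose by 0.70 (adjusted p = 8.5e-05) and 0.76 (adjusted p = 3.59e-05). Of 13 neutrophil markers 13 and 11 were called higher, with sums of 47.7 to 113.2, 186.8 to 297.3 and 98.95 to 223.8 CPM and no marker at 0. Of 9 monocyte and dendritic cell markers 5 and 3 were called higher and 1 lower each, with sums of 90.2 to 111.9, 128.2 to 179.4 and 117.0 to 149.7 CPM. The 10 genes together summed to 41.5 to 52.9, 49.5 to 54.7 and 48.0 to 52.7 CPM, that is 1.11 and 1.07 times the vehicle mean, against 1.501 and 1.40 times for the macrophage markers. Of 8 tested lymphocyte markers 3 and 2 were called higher, none of them in every fit with 1 library left out, and Cd3g and Cd8a were at 0 in some library. Erythrocyte markers were called higher in 7 and 6 of 7, with sums 3.58 and 3.44 times the vehicle mean. Markers of myelinating Schwann cells were called higher in 8 and 4 of 8, of endothelium in 7 and 8 of 9 and of fibroblasts in 7 and 5 of 7, with sums 1.38 and 1.19, 1.47 and 1.499, and 1.34 and 1.31 times the vehicle mean. Of 9 satellite glia markers 2 were called higher and 2 lower with each drug, close to the shares over all genes. The part of these cell types in the changes of the 10 genes was not tested.

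As a percentage of the summed macrophage markers, Cd14 stood at 0.87 to 1.01% in vehicle, 0.96 to 1.14% with cisplatin and 1.11 to 1.25% with oxaliplatin. Tlr2 stood at 1.04 to 1.49%, 1.10 to 1.27% and 1.19 to 1.36%, with overlapping groups. Tlr3 stood at 6.01 to 6.96% in vehicle, 2.70 to 3.45% with cisplatin and 2.92 to 3.51% with oxaliplatin. Tlr7 (1.41 to 1.55%, 1.18 to 1.22% and 1.04 to 1.33%), Tlr4 (8.03 to 11.7%, 6.34 to 7.39% and 6.34 to 7.97%) and Myd88 (4.13 to 5.56%, 3.32 to 3.96% and 3.48 to 3.93%) were also lower in every drug library than in every vehicle library. The groups overlapped for Casp1 (4.73 to 5.81%, 3.49 to 4.77% and 4.16 to 5.05%), Gsdmd (2.18 to 3.51%, 2.04 to 2.29% and 2.12 to 2.36%), Pycard (0.72 to 0.98%, 0.75 to 1.19% and 0.85 to 0.94%) and Nlrp3 (0.47 to 0.78%, 0.52 to 0.60% and 0.40 to 0.50%). Cd14 overlapped vehicle with cisplatin and was above it in every oxaliplatin library. The summed macrophage markers themselves rose to 1.501 and 1.40 times the vehicle mean. A gene whose CPM did not change is therefore lower in this ratio, and Tlr4, Tlr7 and Myd88 were not called in CPM. The share of all genes that separate in this ratio was not counted. These ratios are descriptions without a test. The macrophage markers in the sum did not rise alike: their changes ran from 0.36 to 1.11 log2 with cisplatin and from 0.09 to 1.09 with oxaliplatin. Whether they mark macrophages alone in this tissue was not tested. Sensory neuron markers, of which 5 of 13 were called lower and 1 higher in each comparison, summed to between 0.94 and 0.95 times the vehicle mean. Over all genes tested, 22.9% were called lower with cisplatin and 24.1% with oxaliplatin. With library totals, 1 of the 6 sensory neuron calls held in each comparison, and 1 changed sign.

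**Figure D5:**
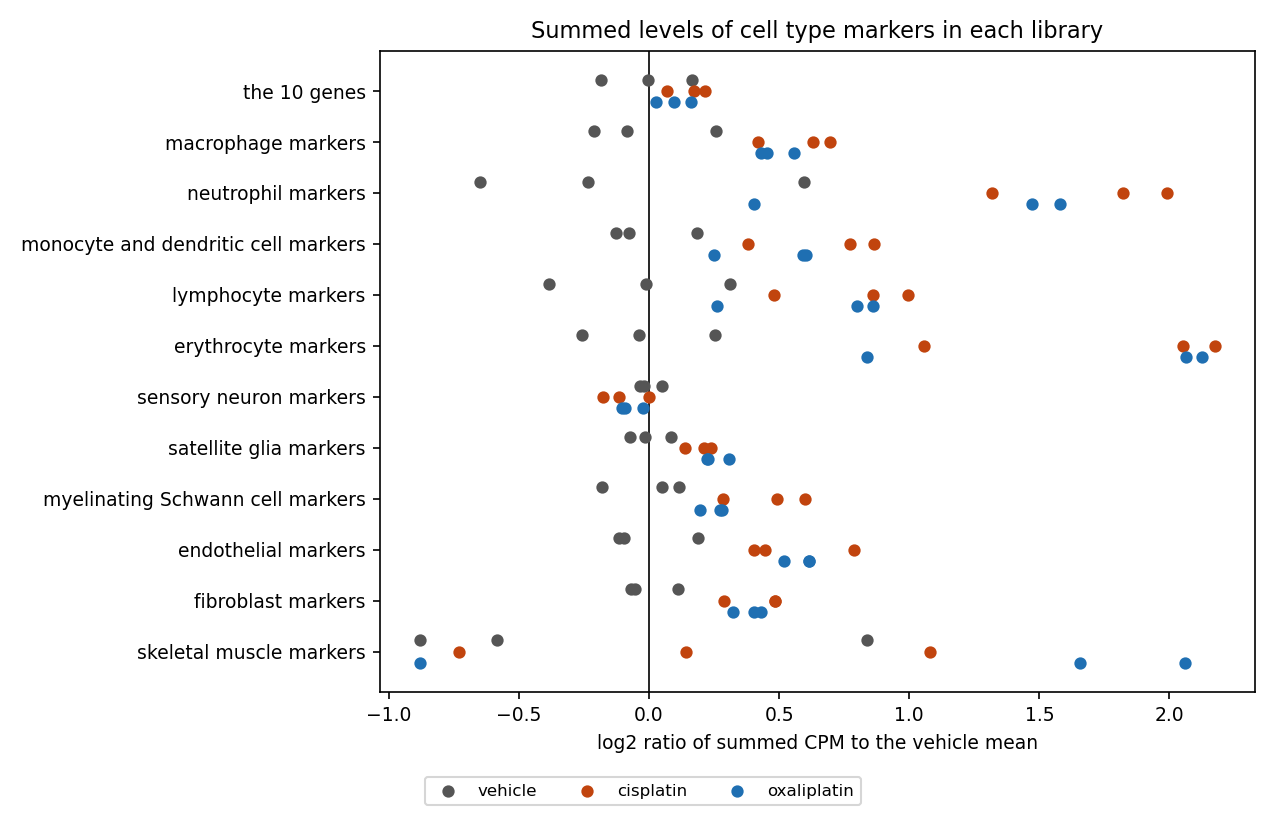
Summed CPM of the 10 genes and of each marker list in each library, as the log2 ratio to the vehicle mean (0 marks that mean), for vehicle (grey), cisplatin (orange) and oxaliplatin (blue). The drug libraries lie above the vehicle libraries for macrophage, endothelial and fibroblast markers, and they overlap vehicle for the 10 genes and for skeletal muscle.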

How the data were processed

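The deposited files hold raw read counts per gene, whole numbers for 9 stranded total RNA libraries sequenced as single 75-base reads, per the labels' protocols. Alignment and counting by the authors used STAR, SAMtools and HTSeq on mm10 (GRCm38), per the submitters' processing notes; their versions, the annotation and the strand setting were not stated there. Rows that name no gene held 42.8 to 74.5% of the recorded reads and were left out. From the counts, edgeR 4.0.16 (R 4.3.3) gave TMM scaling, its filter on low counts and a quasi-likelihood F test over all 9 libraries with 1 term per group. P-values were adjusted by Benjamini-Hochberg over all 17348 genes tested and called under 0.05. SE is the log2 fold change divided by the square root of F. With 3 libraries against 3 an exact permutation test of a single gene cannot go below p = 0.1 (two-sided), so none is given. P-values measure the spread between pools of 4 animals.

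GENCODE M21 gave exon and coding lengths for 91.6% of symbols (94.4% of tested genes), and RefSeq (GRCm38.p6) the promoter stretches. The members and gene lists were chosen with earlier results of these data known. Named besides the members were, per pathway list, the 3 genes of smallest p for each drug, a set of partner and output genes whatever their values, the 3 genes nearest each member (1 of them is not reported here), and, of the leading markers that the rule covers, C1qb; the other markers are given as counts. Alternatives were other scalings (DESeq2 1.42.0 size factors, library totals), filters, tests (limma-voom 3.58.1, DESeq2), gene sets, removal of each library's trend with exon length and GC content (mgcv 1.9.3), the replicate number as a block, and leaving out each library. The test was checked on simulated data in which few genes changed, as many up as down. Far more genes were called here, so that check does not bear on the choice of scaling. No 2 libraries of the same group agreed within sampling noise.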

Additional observations from a re-analysis of the deposited data

How the results depend on the processing

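Of the 10 genes, 5 were called with cisplatin and 4 with oxaliplatin. Library totals gave 9 and 7 (all higher). The fit to the 2 groups compared gave 2 for cisplatin (Cd14 and Tlr3), and a threshold of 0.1 gave 8 for cisplatin. Leaving out 1 library gave 2 to 8 and 2 to 5. For the other Toll-like receptors (8 and 9 called) these fits gave 5 to 10 and 5 to 9. For the adaptors (12 and 10) they gave 6 to 12 and 7 to 10, and no filter gave 7 for cisplatin. For the NF-kappaB targets (3 and 4) they gave 1 to 4 and 1 to 5, library totals 6 and 8, and a threshold of 0.1 gave 5 for cisplatin. For the other inflammasome genes (7 and 7) they gave 4 to 8 and 5 to 8, and removing the length and GC trend gave 4 and 4. For the interleukin-1 family (5 and 2) they gave 1 to 5 and 0 to 4, DESeq2 and the fit to the 2 groups 3 each for cisplatin, and library totals 5 for oxaliplatin. Between the drugs the count was 0 for the 10 genes and each list under every alternative run. The cause of these shifts was not tested. With the replicate number as a block, the 10 genes kept 5 and 4 calls and the pathway lists had 8, 12, 3, 7 and 4 with cisplatin and 7, 9, 3, 7 and 2 with oxaliplatin. The labels do not say that a number pairs libraries, and the deviations of same-numbered libraries correlated between -0.141 and 0.105 (9 pairs), against -0.228 to 0.213 for other numbers (18 pairs). Depth limits Nlrp3, Pycard and Cd14 among the 10 genes, and Il1b, Aim2, Tlr9, Il18rap and Sigirr among the others named, each with fewer than 40 reads in every vehicle library.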
